A study of Rattus norvegicus with 3 samples.

Results

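The data describe 92 genes for plasma membrane and lysosomal transporters of sugars, amino acids, lactate and other solutes in FRSK. This is a line of keratinocytes that came from the skin of fetal rats. The genes were taken by symbol from the solute carrier families 1, 2, 3, 5, 6, 7, 16, 36, 38 and 43, with the cystine transporter gene Slc7a11 left out, and they are 92 of 15037 genes named on the array. The study compared 3 cultures, each on 1 Affymetrix whole-transcript array: cells given Met-enkephalin (Met-ENK) at 100 nM for 24 h, cells given β-END(1-9), a fragment of β-endorphin, at 100 nM for 24 h, and control cells that received no stimulus. All cultures were the same line, kept in medium with 10% serum at 37 °C and 5% CO2, and for the control neither a vehicle nor a time is given in the sources used here. With 1 array per group there is no replicate check, no test between groups could be run, and peptide, culture and array cannot be told apart in any difference. In whole-culture RNA, fewer cells of one kind and less RNA per cell cannot be told apart either.

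Glucose, amino acids and lactate are polar and cross membranes only through carrier proteins. Slc2 carriers let sugars down their gradient, and Slc5 carriers couple sugars and other solutes to sodium. Several Slc16 carriers move lactate and related acids together with protons. Amino acids enter through several families, among them carriers driven by sodium, carriers coupled to protons, facilitated carriers and exchangers of amino acids. Several exchangers of the Slc7 family reach the cell surface bound to the glycoprotein made from Slc3a2. In epidermis these carriers feed growth of the basal layer, and the taurine carrier is known there for its role in water balance.

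Values are log2 signals, in which a step of 1 is a doubling, and they are not compared between genes because probe sets differ in brightness. A mean over the 3 arrays above 7.6 was taken as above background, a limit just over the highest of 23 background probe sets (7.57, equal on the 3 arrays). Positive-control probe sets had medians of 9.81 with Met-ENK, 10.03 with β-END(1-9) and 10.22 in control. Negative-control probe sets had 6.19, 6.14 and 6.15 in that order. The part of these differences in those of the members was not tested. By this limit 25 members lay above background and 67 at background, against 6243 and 8794 of all named genes. The nearest members above the limit had means of 7.76 (Slc7a6os), 7.81 (Slc36a4) and 7.92 (Slc38a6), and the nearest below had 7.48 (Slc5a3), 7.05 (Slc16a11) and 6.92 (Slc5a6). Another 17 symbols that fit the naming pattern in the RefSeq annotation, among them the cationic amino acid transporter gene Slc7a1, were not analysed here. Slc7a6os matched by its symbol but is named for lying beside Slc7a6 on the opposite strand and is not a carrier. All 3 arrays carried keratinocyte genes: 10 of 12 measured markers lay above background, with Krt14 at 16.61 with Met-ENK, 16.63 with β-END(1-9) and 16.70 in control. Above-background markers of other cell types were 2 of 10 for fibroblasts, 1 of 5 for melanocytes, 2 of 9 for immune cells and 1 of 13 for muscle, with 0 of 8 for endothelial cells, 0 of 6 for adipocytes and 0 of 7 for neurons. The muscle gene was Myl2, with 13.56 with Met-ENK, 13.12 with β-END(1-9) and 12.41 in control, and its part in any result was not tested.

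Few of the 25 members above background differed between arrays by 1.5-fold (0.58 on the log2 scale). With Met-ENK against control 0 were that much higher and 0 that much lower, where all 6243 genes above background had 0.352% higher and 5.81% lower. With β-END(1-9) against control 0 were higher and 1 was lower, where all such genes had 0.208% higher and 1.81% lower. Between Met-ENK and β-END(1-9) 0 were higher and 0 lower, where all such genes had 1.63% higher and 2.37% lower. For a list of 25 genes these counts are near the background. The median difference of the 25 members was 0.05 for Met-ENK against control, -0.03 for β-END(1-9) against control and 0.09 for Met-ENK against β-END(1-9), and over all genes above background it was 0.00, -0.04 and 0.00. The members' median for β-END(1-9) against control turned to 0.06 after a new quantile normalization, to 0.03 with the trend along mean level removed and to 0.04 with the trend along genomic span removed, and over all genes it turned with them, to 0.05, 0.03 and 0.02. Each pair of comparisons shares an array, so their differences are not separate evidence.

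**Figure D1:**
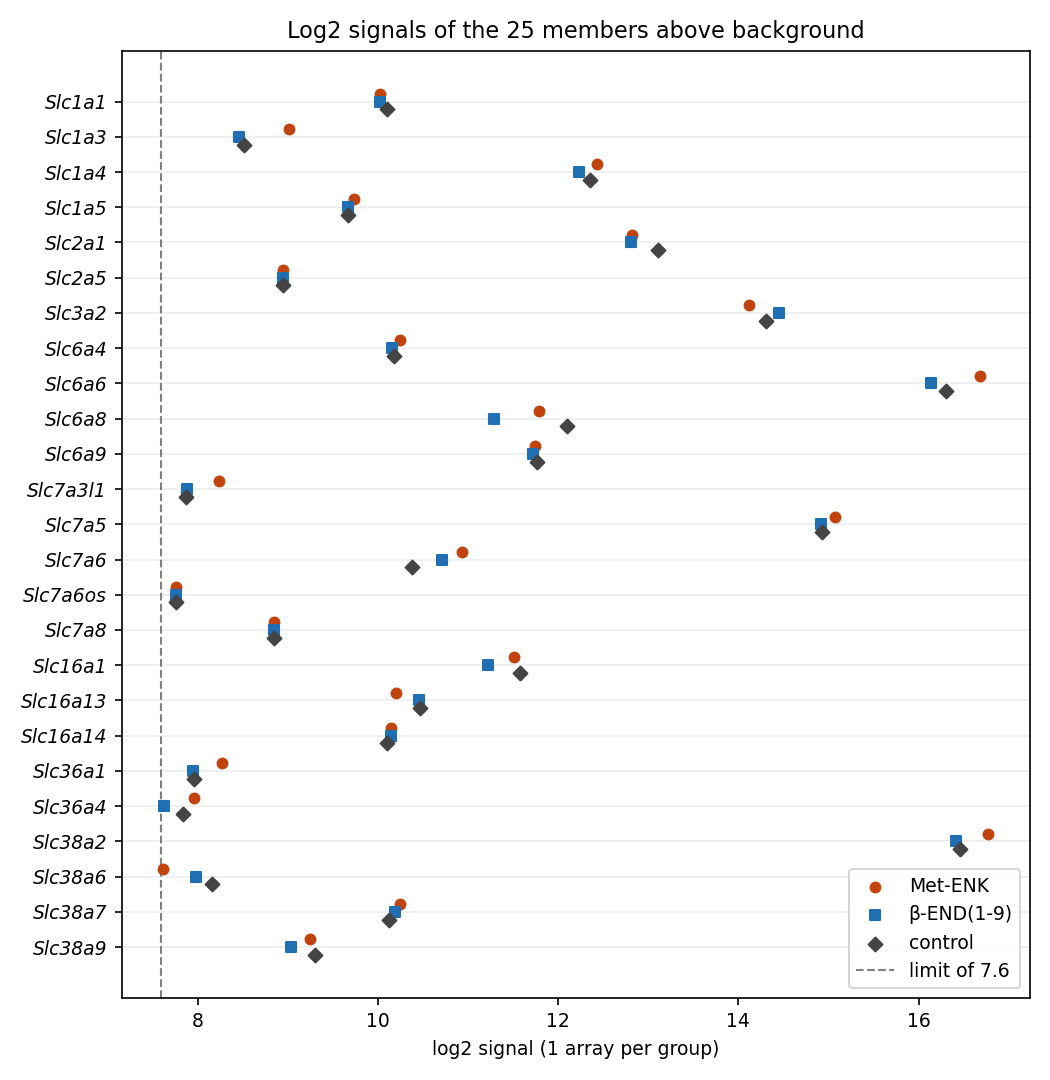
Log2 signals of the 25 members above background on the Met-ENK, β-END(1-9) and control arrays, 1 point per array, ordered by family, with the limit of 7.6 dashed. The 3 points of most genes lie close together, and Slc6a8 has the widest spread (0.81 between β-END(1-9) and control).

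The member past 1.5-fold was Slc6a8, which encodes the carrier that brings creatine into cells. Slc6a8 had a log2 signal of 11.79 with Met-ENK, 11.29 with β-END(1-9) and 12.10 in control. It was highest in control and lowest with β-END(1-9), with the Met-ENK array between them. The difference from control was -0.81 for β-END(1-9), which is 0.571 times the control signal, and -0.31 for Met-ENK, and Met-ENK minus β-END(1-9) was 0.50. Of 6243 genes above background, 28 had a lower value than Slc6a8 for β-END(1-9) against control, while 1010 had a lower one for Met-ENK. Over the settings of scaling and trend removal tried, its β-END(1-9) difference lay between -0.81 and -0.71.

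Other carriers of family 6 showed smaller differences. Slc6a6, for the taurine carrier, had 16.69 with Met-ENK, 16.14 with β-END(1-9) and 16.30 in control. Here the Met-ENK array was highest, 0.39 above control, and β-END(1-9) was 0.17 below control, so that Met-ENK exceeded β-END(1-9) by 0.55. As deposited, 128 of 6243 genes had a larger value in that last comparison. Across the scalings and trend removals tried, this Slc6a6 difference lay between 0.45 and 0.56. Slc6a9, for the glycine carrier GlyT1, had 11.74 with Met-ENK, 11.73 with β-END(1-9) and 11.77 in control, and Slc6a4, for the serotonin carrier, had 10.25, 10.16 and 10.18 in that order. Both genes spanned 0.09 or less over the 3 arrays.

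The upstream sequences of 3 members follow as examples. Slc6a8 was the member past 1.5-fold, Slc2a1 was below control by nearly the same step with both peptides, and Slc38a2 was highest with Met-ENK. The 3 are not separate patterns, since all were lowest with β-END(1-9) and Slc6a8 too was below control with both peptides. Each is the 250 bases before the outermost RefSeq start of the gene on assembly GRCr8, written 5′ to 3′ on the strand of the gene. They lie at chrX:156535767-156536016 on the plus strand for Slc6a8, at chr5:138002272-138002521 on the plus strand for Slc2a1 and at chr7:129742620-129742869 on the minus strand for Slc38a2. Capitals mark matches to any of 6 short motifs on either strand.
Slc6a8: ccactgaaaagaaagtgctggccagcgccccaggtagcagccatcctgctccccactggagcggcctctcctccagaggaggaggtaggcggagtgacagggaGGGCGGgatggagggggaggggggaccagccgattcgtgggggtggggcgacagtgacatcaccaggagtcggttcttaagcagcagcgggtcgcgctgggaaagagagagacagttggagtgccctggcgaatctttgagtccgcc
Slc2a1: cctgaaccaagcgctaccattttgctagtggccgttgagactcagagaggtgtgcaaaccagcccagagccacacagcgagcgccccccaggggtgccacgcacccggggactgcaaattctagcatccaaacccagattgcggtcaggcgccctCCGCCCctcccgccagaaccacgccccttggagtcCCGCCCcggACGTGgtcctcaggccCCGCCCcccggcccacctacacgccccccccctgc
Slc38a2: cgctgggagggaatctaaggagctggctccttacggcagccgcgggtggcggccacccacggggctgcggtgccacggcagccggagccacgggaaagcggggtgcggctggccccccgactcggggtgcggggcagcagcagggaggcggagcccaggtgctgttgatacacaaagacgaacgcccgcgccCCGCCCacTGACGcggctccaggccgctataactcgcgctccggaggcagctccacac

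The motifs searched were the GC box GGGCGG, the cAMP response half-site TGACG, the amino acid response core TGATGNAA, the E-box CACGTG, the hypoxia response core ACGTG, which every E-box also holds, and the TATA motif TATAAA. The Slc6a8 window held 1 GC box that begins 147 bases before the start, and no other match. In the Slc2a1 window there were 3 GC boxes and 1 hypoxia response core, which begins 51 bases before the start. The Slc38a2 window held 1 GC box, 58 bases before the start, and 1 cAMP response half-site, 50 bases before it. Windows were found for 19 of the 25 members above background, 22 windows in all, since some genes have several, such as Slc1a3 with near-identical ones. GC boxes stood in 14 of these 22 windows (63.6%), against 30.5% of all 33469 RefSeq windows of this length and 62.7% of those of genes above background. The hypoxia core stood in 11 (50.0%), against 16.6% and 24.0%, and the cAMP half-site in 5 (22.7%), against 18.2% and 32.0%. E-boxes were found in 5 (22.7%), against 5.59% and 8.94%, TATA motifs in 2 (9.09%), against 12.9% and 5.87%, and the amino acid response core in 1 (4.55%, that of Slc1a4), against 3.40% and 1.77%. By gene, the GC box windows belonged to 13 of the 19 members and the hypoxia core windows to 9. The members with an E-box were Slc16a1, Slc1a4, Slc36a1, Slc38a7 and Slc7a5. All 5 are among the 9 with a hypoxia core, so these 2 shares are not separate. A match is a description of the letters and does not show a bound site. Only the 250 bases before a start were searched, so a window without a motif does not show that the gene lacks it.

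Sugar carriers above background were Slc2a1 and Slc2a5, which are 2 of 11 members of family 2. In family 5, which also carries other solutes, 0 of 12 members were above background. Slc2a1, for the main glucose carrier of growing epithelial cells, had 12.82 with Met-ENK, 12.81 with β-END(1-9) and 13.11 in control. Both peptide arrays were thus below control by nearly the same step, -0.30 and -0.31, against 0.01 between the peptides, and since the 2 steps share the control array they are not separate measurements. Of 6243 genes above background, 1046 had a lower value for Met-ENK and 774 for β-END(1-9). Slc2a5, for a fructose carrier, had exactly 8.95 on all 3 arrays.

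**Figure D2:**
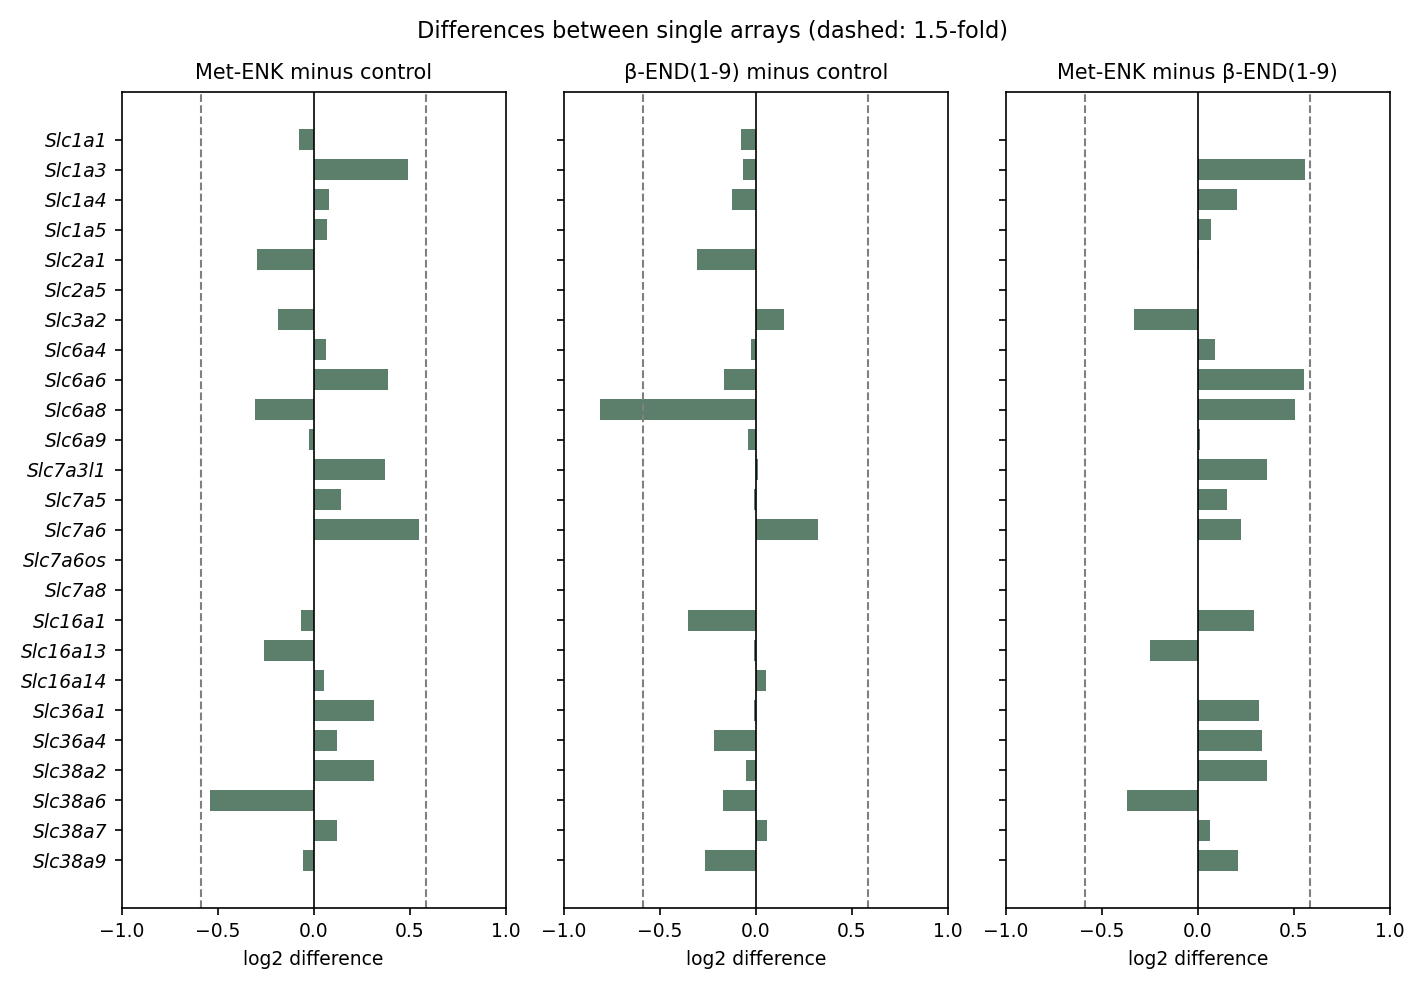
Differences in log2 signal between single arrays for the 25 members above background: Met-ENK minus control, β-END(1-9) minus control and Met-ENK minus β-END(1-9), with 1.5-fold dashed. A single bar, Slc6a8 for β-END(1-9) against control (-0.81), crosses a dashed line.

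Family 16 includes carriers of lactate and related acids, and 3 of its 12 members were above background. Slc16a1, for the monocarboxylate carrier MCT1, had 11.51 with Met-ENK, 11.22 with β-END(1-9) and 11.58 in control. The β-END(1-9) array was lowest, 0.35 below control, with Met-ENK near control (-0.06). Slc16a13 had 10.21 with Met-ENK, 10.46 with β-END(1-9) and 10.46 in control, so that Met-ENK differed by -0.26 from control and by -0.25 from β-END(1-9). Slc16a14 had 10.15 on both peptide arrays, an exactly equal value, and 10.10 in control. Slc16a3, for the lactate exporter MCT4, was at background with 4.83 on all 3 arrays. Bsg, the gene for the chaperone that carries MCT proteins to the surface, had 13.79 with Met-ENK, 13.83 with β-END(1-9) and 13.95 in control, and Emb, for a related chaperone, had 9.03, 8.90 and 9.16 in that order.

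Families 3 and 7 include exchangers of large and cationic amino acids. They had 1 of 2 and 5 of 15 members above background, the 5 counting Slc7a6os, which is not a carrier. Slc3a2, whose product is the shared heavy chain of the exchangers, had 14.12 with Met-ENK, 14.45 with β-END(1-9) and 14.30 in control. Slc3a2 was highest with β-END(1-9) and lowest with Met-ENK, and Met-ENK minus β-END(1-9) was -0.33. Its partner Slc7a5, for the leucine carrier LAT1, had 15.07 with Met-ENK, 14.92 with β-END(1-9) and 14.93 in control, so that Met-ENK against control was 0.14 for the light chain and -0.18 for the heavy chain, and these signs held under every scaling tried. Slc7a6, for a partner that exchanges arginine for neutral amino acids, had 10.93 with Met-ENK, 10.71 with β-END(1-9) and 10.38 in control. Both peptide arrays were above control, by 0.55 and 0.33, and 37 of 6243 genes had a larger value for Met-ENK and 90 for β-END(1-9). Slc7a6 stayed below 1.5-fold as deposited and passed it for Met-ENK, at 0.61, after a new quantile normalization. Slc7a8, for the neutral amino acid exchanger LAT2, had 8.85 on all 3 arrays, and Slc7a6os had 7.76 on all 3. Slc7a3l1 had 8.24 with Met-ENK, 7.88 with β-END(1-9) and 7.87 in control.

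The glutamate and neutral amino acid carriers of family 1 had 4 of 7 members above background. Slc1a3, for the glutamate carrier also known from glia, had 9.01 with Met-ENK, 8.46 with β-END(1-9) and 8.52 in control. The Met-ENK array stood apart here, 0.49 above control and 0.56 above β-END(1-9), while β-END(1-9) minus control was -0.06. Of 6243 genes, 65 had a larger value than Slc1a3 for Met-ENK against control and 124 for Met-ENK against β-END(1-9), as deposited. Across the scalings and trend removals tried, its Met-ENK difference lay between 0.46 and 0.58 against control. Against β-END(1-9) it lay between 0.46 and 0.56. The serine and alanine carrier gene Slc1a4 had 12.44 with Met-ENK, 12.23 with β-END(1-9) and 12.35 in control. Slc1a5, for the glutamine carrier ASCT2, had 9.74 with Met-ENK and 9.67 on both other arrays, and Slc1a1, for a carrier of glutamate and cysteine, had 10.02 on both peptide arrays and 10.10 in control. These 3 genes differed by 0.21 or less between any 2 arrays.

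Sodium-coupled and lysosomal amino acid carriers of families 38 and 36 had 4 of 9 and 2 of 4 members above background, and 0 of 3 members of family 43, facilitated carriers of neutral amino acids, were above it. Slc38a2, for the carrier SNAT2 that cells raise when starved of amino acids, had 16.78 with Met-ENK, 16.41 with β-END(1-9) and 16.46 in control. It was highest with Met-ENK, 0.31 above control and 0.36 above β-END(1-9). Slc38a6 had the lowest difference of any member above background for Met-ENK against control, with 7.62 with Met-ENK, 7.99 with β-END(1-9) and 8.16 in control, a difference of -0.54. Its Met-ENK signal lay at the limit of 7.6, so this gene is only just separated from background. Slc38a7, for a lysosomal glutamine carrier, had 10.25 with Met-ENK, 10.19 with β-END(1-9) and 10.13 in control. The arginine sensor of the lysosome, Slc38a9, had 9.24, 9.03 and 9.30 in that order. Slc36a1, for a proton-coupled carrier of small amino acids on lysosomes, had 8.27 with Met-ENK, 7.95 with β-END(1-9) and 7.96 in control, and Slc36a4 had 7.96, 7.63 and 7.84. Of these last 4 genes Slc36a1 and Slc36a4 differed most between the peptides, with Met-ENK 0.32 and 0.34 above β-END(1-9). The β-END(1-9) signal of Slc36a4 lay near the limit of 7.6, so this gene too is only just separated from background.

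Across the 25 members above background the Met-ENK array was the sole highest for 12 (48.0%) and the β-END(1-9) array the sole lowest for 13 (52.0%), against 28.9% and 35.0% of all genes above background. Met-ENK exceeded β-END(1-9) for 17 members and was below it for 3 (Slc3a2, Slc38a6 and Slc16a13), with 5 exactly equal, where over all genes above background 47.3% were above, 32.1% below and 20.5% equal. Under other scalings 22 of the 25 were higher with Met-ENK than with β-END(1-9) with arrays centred, where 68.2% of all genes were, 16 after quantile normalization (46.5%), 15 with the trend along mean level removed (40.9%) and 16 with the trend along span removed (46.5%). Against control 13 members were higher and 9 lower with Met-ENK, where over all such genes 33.5% were higher and 45.8% lower. That contrast in direction holds for the values as deposited and goes under 3 scalings. With arrays centred 16 members were higher and 9 lower (57.7% and 42.3% of all genes). After quantile normalization 18 and 7 were (64.2% and 35.6%), and with the trend along mean level removed 16 and 9 (53.9% and 46.1%). With the trend along genomic span removed 14 members were higher and 11 lower, where 49.8% of all genes were higher and 50.2% lower. For β-END(1-9) against control 5 were higher and 16 lower as deposited (17.3% and 58.8% of all genes), a direction that turned to 16 higher and 9 lower after quantile normalization (60.0% and 39.6%). It was 15 higher and 10 lower with the trend along mean level removed (54.7% and 45.3% of all genes) or along genomic span removed (54.6% and 45.4%), and 12 higher and 13 lower with arrays centred (45.4% and 54.6%), so the members' turn was shared by all genes. The keratinocyte markers had median log2 signals of 14.59 with Met-ENK, 14.32 with β-END(1-9) and 14.51 in control, and their part in the result was not tested.

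**Figure D3:**
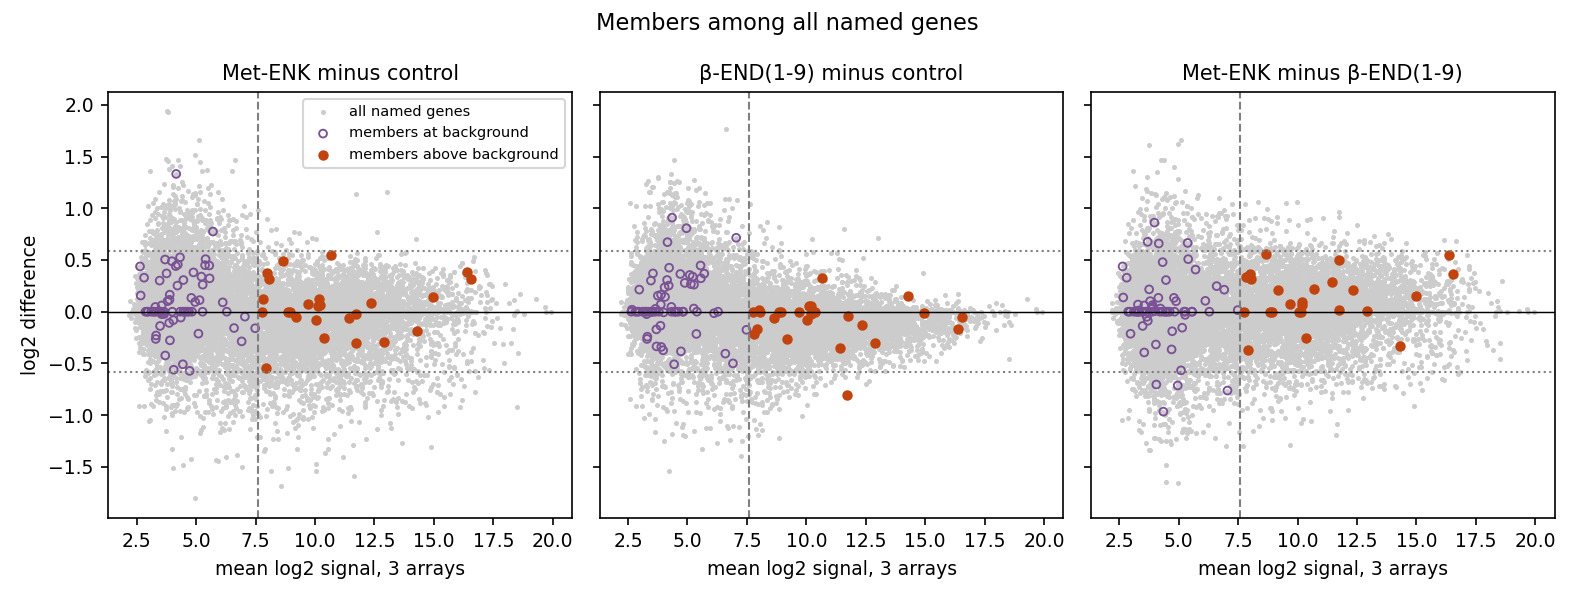
Log2 difference against mean log2 signal for all named genes (grey), members at background (open) and members above background (filled) in each of the 3 comparisons, with the limit of 7.6 dashed and 1.5-fold dotted. The filled points lie inside the cloud of all genes, with Slc6a8 (-0.81) near its lower edge for β-END(1-9) minus control.

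Genomic span, the distance from start to end of a gene in the GRCr8 annotation, is given because the share of genes lower with Met-ENK differed along it. The 25 members above background spanned 8.66 to 90.9 kb with a median of 28.6 kb, against a median of 24.2 kb over all genes above background. When those genes were ordered by span and cut into 5 equal classes, 0 of the 25 fell in the shortest class, where 14.9% of genes were at least 1.5-fold lower with Met-ENK than in control, and 8, 5, 7 and 5 fell in the following classes, where 6.81%, 4.08%, 2.16% and 1.12% were. With the trend along span removed, the median of the 25 members was 0.07 for Met-ENK against control and 0.06 for Met-ENK against β-END(1-9), and that of all genes was -0.00094 and -0.015.

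Exactly equal signals limit what small differences can show. Of the 25 members above background, 3 had 1 value on all 3 arrays (Slc2a5, Slc7a8 and Slc7a6os), another 3 had equal values on 2 arrays (Slc16a14, Slc1a1 and Slc1a5), and 19 differed on every array. Over all genes above background 11.2% had 1 value on all 3 arrays and 31.3% had equal values on 2.

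Among the 67 members at background, 9 (13.4%) were at least 1.5-fold apart between 2 arrays, against 13.4% of all 8794 genes at background. For Met-ENK against control 2 were higher and 0 lower, where all 8794 genes at background had 4.84% higher and 3.07% lower. For β-END(1-9) against control 4 were higher and 0 lower, against 4.37% and 2.08%, and for Met-ENK against β-END(1-9) 4 were higher and 4 lower, against 3.13% and 3.54%. For a list of 67 genes these counts are near the background too, and signals of this height do not show whether a carrier was made. The widest difference was that of Slc1a7, a glutamate carrier gene of the retina, with 4.83 with Met-ENK, 4.17 with β-END(1-9) and 3.49 in control. Slc6a2, for the noradrenaline carrier, had 6.10, 5.70 and 5.33 in that order, and both genes were highest with Met-ENK and lowest in control. Highest with β-END(1-9) were Slc36a2 (4.01 with Met-ENK, 4.98 with β-END(1-9), 4.07 in control), Slc38a3 (4.75, 5.47 and 4.66), Slc16a11 (6.78, 7.54 and 6.83) and Slc7a3 (3.64, 4.34 and 4.20). Lowest with β-END(1-9) were Slc16a7 (4.43 with Met-ENK, 3.57 with β-END(1-9), 3.94 in control), Slc5a4 (5.75, 5.08 and 5.30) and Slc6a20a (4.09, 3.41 and 3.58). On every array all 9 had signals between 2.51 and 7.57, the lowest and highest background probe sets.

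**Figure D4:**
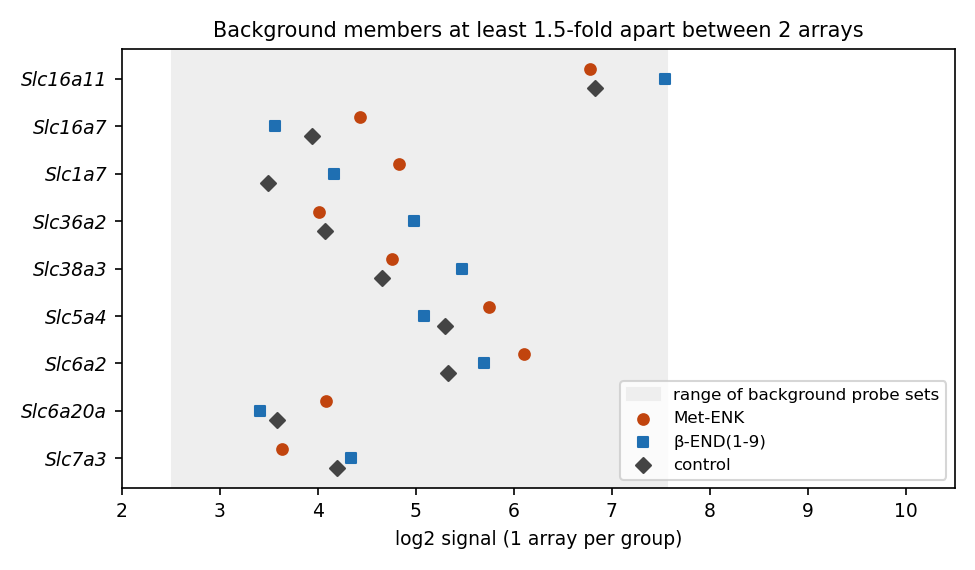
Log2 signals on the Met-ENK, β-END(1-9) and control arrays for the 9 background members that were at least 1.5-fold apart between 2 arrays, 1 point per array, with the span of background probe sets in grey (2.51 to 7.57). All points lie inside the grey band, and the widest range is that of Slc1a7 (4.83 with Met-ENK, 3.49 in control).

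The other 58 background members differed by less than 1.5-fold between any 2 arrays, and 15 of the 67 had 1 value on all 3 arrays. By family they were 9 of family 2, 11 of family 5, 7 of family 16, 11 of family 6, 9 of family 7, 4 of family 38, 3 of family 43, 2 of family 1, 1 of family 3 and 1 of family 36. They include Slc5a3, for the inositol carrier, at 7.44 with Met-ENK and 7.42 with β-END(1-9), differences of -0.16 and -0.18 from control. Slc5a6, for the carrier of biotin and pantothenate, had 6.89, 6.68 and 7.18 in that order. Slc2a3, for the glucose carrier best known from neurons, had 3.95 with Met-ENK, 3.74 with β-END(1-9) and 3.58 in control, and Slc5a1, for the sodium-glucose carrier of gut and kidney, had 2.95 on all 3 arrays.

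Genes that act with these carriers were described through 3 lists. Of the partners and regulators 16 of 23 were measured and 13 lay above background. The list medians were -0.08 for Met-ENK against control, -0.08 for β-END(1-9) against control and 0.03 between the peptides. In any comparison 0 of the 13 passed 1.5-fold. Over all genes above background 0.352% were that much higher and 5.81% lower for Met-ENK against control. The shares were 0.208% and 1.81% for β-END(1-9) against control, and 1.63% and 2.37% between the peptides. For a list of 13 genes a count of 0 is near these shares. Among these genes, Txnip, whose product pulls glucose carriers off the surface, had 11.17 with Met-ENK, 11.06 with β-END(1-9) and 11.08 in control. Atf4, for the transcription factor of the amino acid response, had 14.55, 14.65 and 14.67, and Myc, for a factor known to raise several of these carriers, had 13.59, 13.44 and 13.73. The widest difference among the 3 genes was -0.29, for Myc with β-END(1-9) against control.

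Of the amino acid sensing list 19 of 22 genes were measured and 15 lay above background, of which 1 was at least 1.5-fold lower with Met-ENK than in control and 0 passed in another comparison, where 5.81% of all genes above background were that much lower with Met-ENK, a share near which 1 of 15 lies. That gene was Rraga, for a GTPase that brings mTORC1 to the lysosome, with 12.38 with Met-ENK, 12.62 with β-END(1-9) and 12.97 in control. Its difference of -0.5862 for Met-ENK against control was only just past 1.5-fold. The gene has a span of 1.60 kb, in the shortest class. Lamtor4 (10.34, 10.93 and 10.85) and Lamtor2 (8.64, 9.04 and 9.17), subunits of its anchor on the lysosome, were also lowest with Met-ENK. Lamtor3 and Lamtor5, other subunits of the anchor, differed by 0.01 or less. Lamtor4, Lamtor2 and Lamtor5 also lay in the shortest class, with spans of 3.82, 4.265 and 5.36 kb, and Lamtor3 spanned 12.2 kb. The medians of the 15 genes above background were 0.00 in each comparison. All 4 genes of the list at background were lower with Met-ENK than in control, with a median of -0.49. Of all genes at background 28.8% were lower. Among the 4, Nprl2 had 6.10 with Met-ENK, 6.86 with β-END(1-9) and 7.03 in control. Lamtor1, a further subunit of the anchor, had 6.97, 7.43 and 7.38 in that order.

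Enzymes of the carried substrates had 24 of 28 genes measured and 17 above background. The list medians were 0.00 for Met-ENK against control, -0.11 for β-END(1-9) against control and 0.04 between the peptides. In any comparison 0 of the 17 passed 1.5-fold. Over all genes above background 0.352% were that much higher and 5.81% lower for Met-ENK against control. The shares were 0.208% and 1.81% for β-END(1-9) against control, and 1.63% and 2.37% between the peptides. For 17 genes a count of 0 is near these shares. The serine synthesis gene Psat1 had 13.90 with Met-ENK, 13.88 with β-END(1-9) and 14.35 in control, and the polyamine gene Odc1 had 13.18, 13.25 and 13.61, both lower with either peptide. Ldha, for the lactate dehydrogenase subunit that serves lactate export, had 16.45 with Met-ENK, 16.68 with β-END(1-9) and 16.80 in control, lower with Met-ENK by 0.35. Pycr1, for proline synthesis, had 8.24, 7.75 and 8.22 and was lowest with β-END(1-9). Asns, for asparagine synthesis, had 13.45, 13.35 and 13.45.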

How the data were processed

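RNA of 3 cultures was hybridised to 1 array each. The authors deposited log2 signals, 1 per probe set and array, and RMA, the Transcriptome Analysis Console and the Affymetrix Expression Console appear in the submitters' processing notes. RMA corrects background, quantile-normalizes and summarises probes. The deposited signals were still not equal in distribution. Over 23188 probe sets without controls, their standard deviation was 3.36 with Met-ENK, 3.35 with β-END(1-9) and 3.42 in control. Software versions and the genome build were not given in the sources used here. Of 24834 probe sets, 1646 controls were left out. Platform annotation named 1 gene for 15049 clusters, several for 0 and none for 8139. The named clusters gave 15037 genes, for which the probe set with the highest mean was used (10 genes had several, 0 of them members). Groups came from the sample titles. Differences between single arrays were computed with Python 3.11.15 and pandas 2.3.3, with no test, a limit of 7.6 and a threshold of 1.5-fold. Counting, scaling and trend removal (lowess, fraction 0.3, statsmodels 0.14.6) were tested on simulated data. Upstream sequences came from RefSeq (GRCr8), matched by gene identifier. Precision is limited by having 1 array per group. All 25 members above background are named, and background members at 1.5-fold or chosen as examples after their values were seen. Members and lists were chosen with earlier results of these data known. Alternatives were other scalings, filters, thresholds and summaries.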

Additional observations from a re-analysis of the deposited data

How the results depend on the processing

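Of the counts and medians of the 25 members above background, these moved under an alternative. A new quantile normalization gave 1 member at least 1.5-fold higher with Met-ENK than in control (Slc7a6, 0.61), where 0 were as deposited and 0.881% of all genes were under that normalization. Without the filter on level, the 92 members gave 2 higher for Met-ENK against control (2.98% of all genes), 4 higher for β-END(1-9) against control (2.64%), and 4 higher (2.51%) and 4 lower (3.05%) for Met-ENK against β-END(1-9), all added by members at background. At 1.3-fold there were 3 higher (3.20% of all genes above background) and 1 lower (12.4%) for Met-ENK against control and 3 higher for Met-ENK against β-END(1-9) (7.99%). At 2-fold the 1 lower member for β-END(1-9) against control became 0 (0.112% of all genes). These changes follow from the looser or stricter limits themselves, and for the quantile normalization the cause was not tested. The other 69 values of this kind kept within 1.5 times the count or within 0.1 of the median, among them all with arrays centred, with a trend along level or span removed, with a signal over 7.6 required on every array and with probe sets averaged. Of single members, Slc7a3 passed 1.5-fold for Met-ENK against control after quantile normalization (-0.63), and Slc1a7 dropped below it for Met-ENK against β-END(1-9) with the span trend removed (0.58). No paired analysis was possible because each group has 1 array, and for the same reason no replicate could be left out. Signals near the background probe sets limit the 67 background members, Slc38a6 and Slc36a4.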
